A study of Mus musculus with 6 samples.

Results

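Nr4a1, Nr4a2, Nr4a3, Egr1, Egr2 and Egr3 are transcription factor genes switched on by antigen receptor signals, and these 6 genes of the 49315 in the deposited count files are described here across 6 libraries of mouse CD4 T cells. They were chosen by name and not by their values, and each symbol matched 1 identifier. A filter on low values (at least 10 counts and a library-size scaled count, CPM, of at least 2 in the same library, for at least 1 library) was passed by 5 of the 6, and Egr3 did not pass it.

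When a T-cell receptor binds its antigen, calcium and kinase signals switch on immediate early genes, which need no new protein to be transcribed. The Egr genes encode zinc finger factors that read these signals. Egr2 and Egr3 are known for restraining T cells and for the unresponsive state called anergy. The Nr4a genes encode orphan nuclear receptors, which act without a known natural ligand. Nr4a1, also called Nur77, is widely used as a reporter of receptor signalling, and all Nr4a members are linked to T-cell exhaustion and to regulatory T cells.

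The cells carried the CBir1 T-cell receptor transgene (CBir1 TCR Tg), which recognises a flagellin of gut bacteria, on a C57BL/6 background. For 5 libraries, CD45.1 CD4+CD44- donor cells were transferred on day 0 into C57BL/6.CD45.2 recipients, which received 50 ug CBir1 flagellin with 1 ug CT intraperitoneally on days 1 and 7. The groups MEP1+CMC, MEP1+Metformin, MEP1+Rapamycin and MEP1+Metformin+Rapamycin (called the combination below) were given 3 ug of MEP1 intravenously on days 28 and 35. Each dose was followed by 5 daily intraperitoneal injections of the vehicle CMC, alone or with metformin, rapamycin or both. Metformin is a diabetes drug that inhibits mitochondrial complex I, and rapamycin inhibits the kinase complex mTORC1. The No treatment group had neither MEP1 nor inhibitors on those days. All recipients, No treatment included, were challenged with 3 ug of MEP1 on day 56, and on day 63 splenic donor cells were isolated by flow sorting. The inhibitor injections had therefore ended weeks before the RNA was taken. The sixth library is a naive CD4 control of CBir1 TCR Tg cells. The sources used here do not say how these cells were sorted or whether the mice were pooled, and give neither the sex of the mice nor the number of cells.

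Each condition has 1 library, so ratios between libraries have no replicate check. Total counts ranged from 26139000 in the naive control to 60622310 in No treatment. The count column for No treatment is headed as if this group had not been challenged, which contradicts its label. The label is followed here. All 12 CD4 T-cell markers were detected in every library, with summed levels from 36755 CPM in MEP1+Metformin to 120945 CPM in the naive control. Most of these sums was Trbc2, at 27984 CPM in MEP1+Metformin and 109194 CPM in the naive control. Cd4 itself was lowest in the naive control, at 553 CPM against 761 to 1076 CPM elsewhere. Ribosomal RNA-like loci took 15.4% of counts in the naive control and 1.00% to 3.13% elsewhere. Sex-linked genes differed between libraries: Xist was at 257 CPM in MEP1+CMC and between 0.218 and 0.532 CPM in the 3 inhibitor libraries, where Ddx3y, a Y-linked gene, was at 67.9 to 95.9 CPM. No treatment had both, with Xist at 23.0 and Ddx3y at 34.2 CPM, and the naive control had Xist at 42.8 and Ddx3y at 0.374 CPM. MEP1+CMC was close to the naive control in Ddx3y, at 0.301 CPM, and above it in Xist. Apart from that pair, sex and treatment cannot be told apart in any comparison with MEP1+CMC, No treatment or the naive control. The 3 inhibitor libraries are alike in these genes.

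Promoter sequences from RefSeq (build GRCm38.p6) matched 4 of the 6 genes: Nr4a1, Nr4a2, Nr4a3 and Egr2. Egr1 and Egr3 had no entry. The sequences are shown because the best known inputs of such genes from the receptor bind short motifs next to the start site. Each run is 5′ to 3′ on the gene's own strand and holds the bases before the RefSeq start that lie outside the exons of the deposited files. Capitals mark motif matches on either strand: the core TGACG of the cyclic AMP response element (CRE), which is bound by CREB and ATF factors, the EGR site GCGNGGGCG, the CArG box of serum response factor and the MEF2 site. For Egr2, 1 of 5 listed windows is shown, chosen after its matches were seen. It lies within the outer exon bounds of the gene but outside its exons. Of the other 4, the one with its start at 67535499 held none of the motifs searched and the one at 67537566 held a CArG box and no CRE core.
Nr4a1 (chr15:101266596-101266845, plus strand): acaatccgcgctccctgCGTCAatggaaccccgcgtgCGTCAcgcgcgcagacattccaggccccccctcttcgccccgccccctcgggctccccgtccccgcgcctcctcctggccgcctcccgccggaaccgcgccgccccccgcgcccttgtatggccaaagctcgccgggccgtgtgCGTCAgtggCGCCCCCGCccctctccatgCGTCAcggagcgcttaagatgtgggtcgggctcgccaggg
Nr4a2 (chr2:57124004-57124253, minus strand): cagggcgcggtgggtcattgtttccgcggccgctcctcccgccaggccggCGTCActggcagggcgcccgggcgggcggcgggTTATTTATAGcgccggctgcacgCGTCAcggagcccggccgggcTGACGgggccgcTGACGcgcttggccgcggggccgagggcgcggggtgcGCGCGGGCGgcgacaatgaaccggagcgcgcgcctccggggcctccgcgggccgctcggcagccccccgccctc
Nr4a3 (chr4:48045055-48045152, plus strand): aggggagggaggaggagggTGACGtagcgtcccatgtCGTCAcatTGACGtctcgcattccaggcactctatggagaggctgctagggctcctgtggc
Egr2 (chr10:67537619-67537868, plus strand): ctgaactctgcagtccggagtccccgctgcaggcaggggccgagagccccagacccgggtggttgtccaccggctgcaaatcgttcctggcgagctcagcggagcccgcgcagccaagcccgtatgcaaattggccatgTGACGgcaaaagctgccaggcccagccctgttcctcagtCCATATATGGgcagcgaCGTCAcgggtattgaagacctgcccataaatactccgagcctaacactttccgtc
In the windows of 300 bases around the start (250 before, 50 after), the CRE core occurred 4 times in each of Nr4a1, Nr4a2 and Nr4a3 and 2 times in the Egr2 window shown. Of the 32851 promoter windows in the table, 20.8% held at least 1 CRE core, 5.01% at least 2 and 0.231% at least 4. Nr4a1 and Nr4a2 each held 1 EGR site, present in 5.55% of all windows. The Egr2 window held a CArG box (1.63% of all windows), and Nr4a2 held a MEF2 site (3.19%). The full CRE, TGACGTCA, which holds the core on both strands, was in none of the windows of these 4 genes (1.79% of all), and neither was the Nr4a site AAAGGTCA (1.51%). These matches describe letters only. Binding at these sites was not measured here.

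Nr4a1 (ENSMUSG00000023034, GRCm38 chr15:101266846-101274792, plus strand) and Egr1 (ENSMUSG00000038418, chr18:34859823-34864984, plus strand) were the abundant members. Per kilobase of exon the other 4 genes lay below both in every library. The closest was Egr2 in the combination, at 7.36 CPM per kilobase against 36.9 for Egr1. Levels are CPM scaled by TMM (trimmed mean of M values), with 95% counting intervals that cover counting error only. Nr4a1 stood at 789 CPM in No treatment, 401 in MEP1+CMC, 379 in MEP1+Metformin, 159 in MEP1+Rapamycin, 150 in the combination and 184 in the naive control. Egr1 stood at 1026 CPM in No treatment, 592 in MEP1+CMC, 341 in MEP1+Metformin, 171 in MEP1+Rapamycin, 165 in the combination and 143 in the naive control. No treatment was highest for both, and the rapamycin libraries were the lowest of the transferred ones. In No treatment, Egr1 ranked 103 and Nr4a1 ranked 156 from the top among the 12928 genes that passed the filter.

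Nr4a2 (ENSMUSG00000026826, chr2:57106830-57124003, minus strand) and Nr4a3 (ENSMUSG00000028341, chr4:48045153-48086447, plus strand) had another order. Nr4a2 was at 13.4 CPM in No treatment, 69.0 in MEP1+CMC, 43.6 in MEP1+Metformin, 18.7 in MEP1+Rapamycin, 20.2 in the combination and 1.01 in the naive control, the last from 19 counts. Nr4a3 was at 13.8 CPM in No treatment, 28.5 in MEP1+CMC, 31.5 in MEP1+Metformin, 24.6 in MEP1+Rapamycin, 17.5 in the combination and 4.49 in the naive control. For both, the naive control was lowest and No treatment came next, below all 4 libraries given MEP1 on days 28 and 35. Neighbouring levels of Nr4a2 in MEP1+Rapamycin and the combination differed by less than counting error (log2 ratio combination over MEP1+Rapamycin 0.11, interval -0.03 to 0.25).

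Egr2 (ENSMUSG00000037868, chr10:67535475-67542188, plus strand) lay between these patterns. It was at 47.7 CPM in No treatment, 59.2 in MEP1+CMC, 40.7 in MEP1+Metformin, 23.7 in MEP1+Rapamycin, 25.0 in the combination and 14.7 in the naive control. The rapamycin libraries differed by less than counting error (log2 ratio 0.07, interval -0.05 to 0.20). Egr3 (ENSMUSG00000033730, chr14:70077445-70080157, plus strand) was nearly silent, with 42 counts in No treatment, 29 in MEP1+CMC, 49 in MEP1+Metformin, 9 in MEP1+Rapamycin, 35 in the combination and 7 in the naive control. Its levels ran from 0.266 to 0.973 CPM, and Egr3 enters no count or model below. No exon of the 6 genes overlapped another listed gene.

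**Figure D1:**
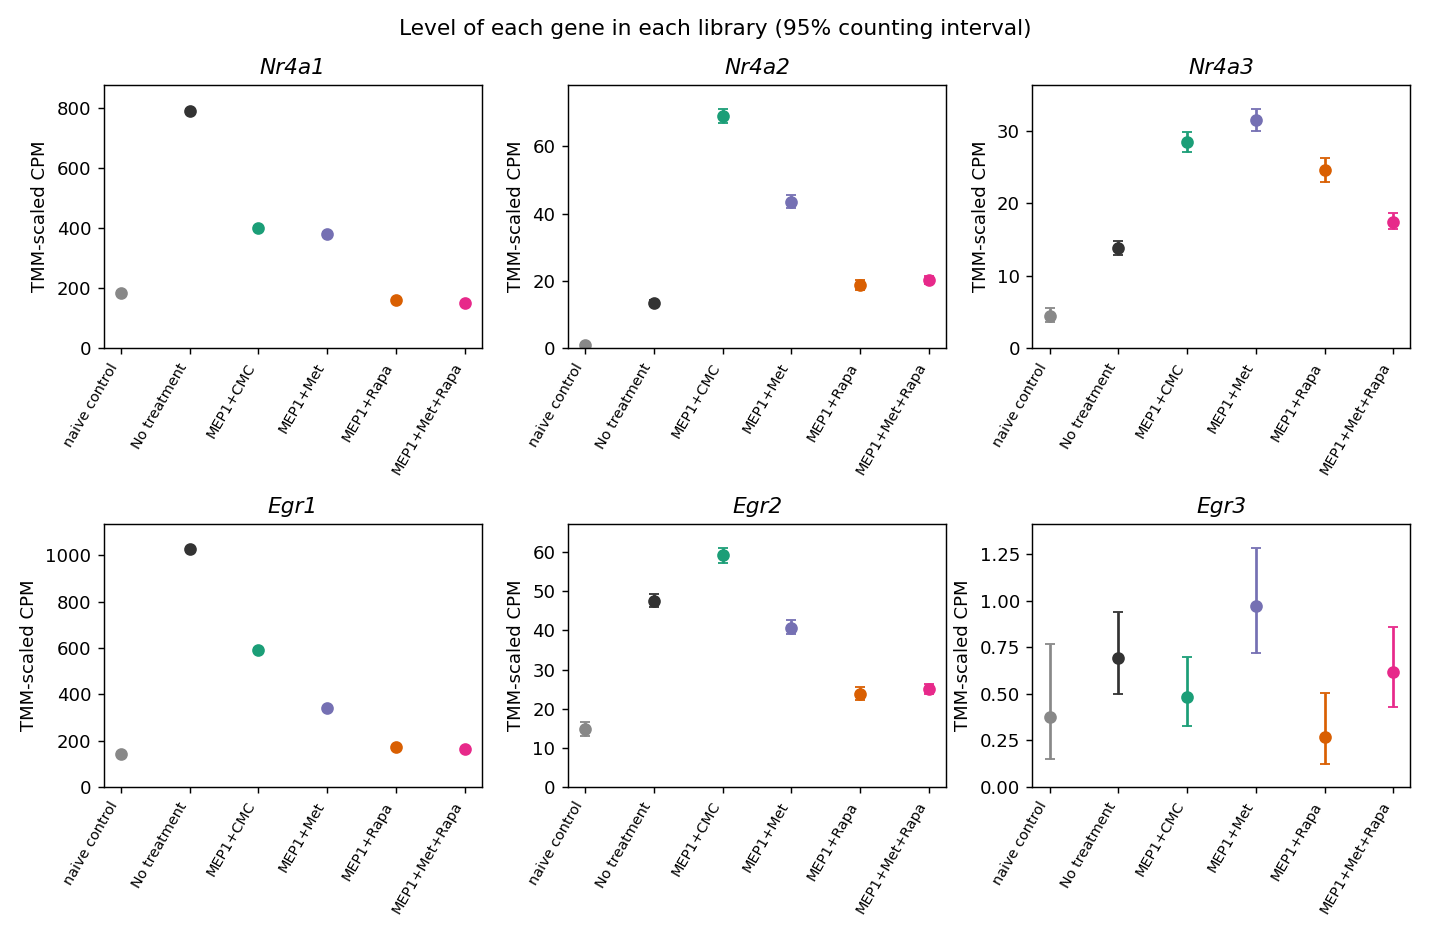
TMM-scaled CPM (vertical axis, linear, starting at 0 and scaled for each gene) of the 6 genes in the 6 libraries, 1 point per library, with bars for the 95% counting interval of the count. Nr4a1 and Egr1 are highest in No treatment, Nr4a2 and Egr2 in MEP1+CMC, and Nr4a3 in MEP1+Metformin.

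The first comparison asks how the genes differ between transferred, immunised and challenged cells and naive cells of the same receptor. Nr4a2 and Nr4a3 rose over the 5 transferred libraries. Nr4a3 rose by 2.37 on the log2 scale (SE 0.51, edgeR quasi-likelihood test with Benjamini-Hochberg adjusted p = 0.019) and Nr4a2 by 5.02 (SE 1.35, edgeR adjusted p = 0.049). Both were higher than the naive control in 5 of 5 transferred libraries. These 2 of 5 genes stand beside 18.3% of all 12928 genes called, of which 9.96% rose. The Nr4a2 call is at the threshold: without MEP1+Metformin its edgeR adjusted p was 0.105, without the combination 0.0896, with DESeq2 size factors 0.053 and without the filter 0.245. The other 3 did not pass: Egr2, which passed with library totals, without the filter and in the DESeq2 Wald test, gave a log2 fold change of 1.42 (edgeR adjusted p = 0.0995), Egr1 1.68 (edgeR adjusted p = 0.324) and Nr4a1 1.03 (edgeR adjusted p = 0.458). The spread in this model also holds the treatment differences among the 5 libraries, and all of it rests on a single naive library.

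The single libraries show where the abundant genes differed from the naive control. A gene counts as higher or lower between 2 libraries here when the ratio is at least 2-fold and the counting interval excludes no change. All 5 genes were higher in No treatment (15.8% of all genes were), in MEP1+CMC (20.2%) and in MEP1+Metformin (21.8%). In the last, Nr4a1 sits at the 2-fold line, at 0.99 with DESeq2 size factors. In MEP1+Rapamycin (21.1%) and in the combination (21%), 2 of 5 were higher, Nr4a2 and Nr4a3. For Egr1 the log2 ratio to the naive control was 2.84 in No treatment, 2.05 in MEP1+CMC, 1.25 in MEP1+Metformin, 0.26 in MEP1+Rapamycin and 0.21 in the combination. For Nr4a1 it was 2.10, 1.12, 1.04, -0.21 and -0.29 in the same order. The sign of the last 2 depends on the scaling: with library totals in place of TMM they were 0.34 and 0.37. These 5 ratios share the naive library. Scaling to library totals moves the median of all genes in them by 0.477 to 0.664, and Egr2 then passes the size rule in both rapamycin libraries.

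The next comparison asks what MEP1 on days 28 and 35 changed in cells that all met MEP1 again on day 56. The families split in this contrast: without inhibitors, Nr4a2 and Nr4a3 were higher after the 2 earlier MEP1 doses and Nr4a1 and Egr1 were at lower levels. MEP1+CMC over No treatment gave a log2 ratio of 2.37 for Nr4a2 (interval 2.26 to 2.48) and 1.04 for Nr4a3 (0.92 to 1.16). It gave -0.98 for Nr4a1 (-1.0 to -0.95), -0.79 for Egr1 (-0.81 to -0.77) and 0.31 for Egr2 (0.24 to 0.38). So 2 of 5 genes were higher, beside 8.69% of all genes, and none lower, beside 3.51%. Nr4a1 and Nr4a3 sit at the 2-fold line: with TMM factors computed without the filter the ratios became -1.02 and 0.999, Nr4a1 then counted as lower and Nr4a3 no longer as higher.

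With inhibitors the split passed the size rule in MEP1+Metformin. There Nr4a2 (1.70) and Nr4a3 (1.19) were higher than in No treatment (10.4% of all genes), and Nr4a1 (-1.06) and Egr1 (-1.59) were lower (4.37%). MEP1+Rapamycin over No treatment gave -2.31 for Nr4a1, -2.58 for Egr1 and -1.0 for Egr2, all 3 lower (5.04% of all genes). The combination over No treatment gave -2.39 for Nr4a1 and -2.63 for Egr1, both lower (4.41% of all genes), and -0.93 for Egr2. Neither rapamycin library held a member higher than No treatment by the size rule (11.9% and 9.46% of all genes). Nr4a2 and Nr4a3 still lay above No treatment, by less than 2-fold and with intervals that exclude no change. Their ratios were 0.49 and 0.83 in MEP1+Rapamycin, and 0.60 and 0.34 in the combination. These ratios share the No treatment library. The calls of Nr4a1 in MEP1+Metformin and of Egr2 in MEP1+Rapamycin sit at the 2-fold line, and with library totals the ratios were -0.87 and -0.93.

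In the model over the 5 transferred libraries none of the 5 genes passed the test for MEP1, beside 1.34% of all genes. Nr4a1 had a log2 fold change of -1.53 (edgeR adjusted p = 0.283), Egr1 of -1.69 (edgeR adjusted p = 0.322), Nr4a2 of 1.504 (edgeR adjusted p = 0.489), Nr4a3 of 0.88 (edgeR adjusted p = 0.226) and Egr2 of -0.36 (edgeR adjusted p = 0.757). At an unadjusted edgeR p under 0.05 were Nr4a1 (0.0445) and Nr4a3 (0.0262). No treatment, where Nr4a1 and Egr1 were highest, also had the highest summed level of the 14 macrophage, monocyte and dendritic cell markers, at 2774 CPM against 381 to 581 in the MEP1 libraries and 49.2 in the naive control, where Cd14 and Siglech were at 0. The 8 erythroid and platelet markers summed to 1618 CPM in No treatment, 53.5 to 356 in the MEP1 libraries and 385 in the naive control. Their part in the Nr4a1 and Egr1 levels was not tested. In bulk RNA, a change in the share of cells that express a gene and a change in RNA per cell cannot be told apart.

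The last comparisons ask what the inhibitors given after MEP1 changed. Nr4a1, Nr4a2, Egr1 and Egr2 fell with rapamycin, and Nr4a3 did not pass the test. The model took the 4 libraries given MEP1 and fitted a metformin and a rapamycin term. Nr4a1 fell by 1.35 on the log2 scale (SE 0.17, edgeR adjusted p = 0.000336), Nr4a2 by 1.51 (SE 0.21, edgeR adjusted p = 0.00418), Egr1 by 1.43 (SE 0.20, edgeR adjusted p = 0.00418) and Egr2 by 1.02 (SE 0.19, edgeR adjusted p = 0.0193). Nr4a3 had -0.54 (SE 0.21, edgeR adjusted p = 0.534). These 4 of 5 genes stand beside 0.449% of all genes called, that is 58 genes, of which 36 fell (0.278%). By p-value Nr4a1 ranked 6, Nr4a2 14, Egr1 16 and Egr2 33 of the 12928 genes. In all 5, Nr4a3 included, each of the 2 libraries with rapamycin lay below each of the 2 without.

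This model has no replicates and 1 residual degree of freedom per gene, which is the departure from additivity of the inhibitors given below. Its spread is largely borrowed from the other genes and does not measure variation between mice. MEP1+CMC also differs from the other 3 libraries in sex-linked genes. With metformin left out of the model, an alternative chosen after seeing the data, 12 genes were called, and Nr4a1, Nr4a2 and Egr1 stayed among them (edgeR adjusted p = 0.0171, 0.0171 and 0.0468) while Egr2 did not (0.112). When MEP1+CMC was also left out, Nr4a1 (-1.31, edgeR adjusted p = 0.00761) and Nr4a2 (-1.18, edgeR adjusted p = 0.0419) passed, and Egr1 (-1.03, edgeR adjusted p = 0.166) and Egr2 (-0.76, edgeR adjusted p = 1) did not. When MEP1+Rapamycin was left out instead, Nr4a1 alone passed (-1.38, edgeR adjusted p = 0.00813). Nr4a1 was called in each of these fits.

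Pair by pair, the difference appeared both without and with metformin. MEP1+Rapamycin over MEP1+CMC gave log2 ratios of -1.33 for Nr4a1 (interval -1.38 to -1.29), -1.88 for Nr4a2 (-2.00 to -1.76), -1.79 for Egr1 (-1.83 to -1.75), -1.32 for Egr2 (-1.43 to -1.21) and -0.21 for Nr4a3 (-0.33 to -0.09). So 4 of 5 were lower, beside 4.49% of all genes. The combination over MEP1+Metformin, a pair in which Ddx3y was high in both libraries, gave -1.33 for Nr4a1, -1.11 for Nr4a2, -1.04 for Egr1, -0.85 for Nr4a3 and -0.70 for Egr2. There 3 of 5 were lower, beside 1.9% of all genes. The macrophage marker sums in these 4 libraries were 581 CPM in MEP1+CMC, 381 in MEP1+Rapamycin, 385 in MEP1+Metformin and 423 in the combination. The 5 natural killer cell markers summed to 11.9 CPM in MEP1+CMC and 12.9 in MEP1+Metformin, against 3.57 in MEP1+Rapamycin and 4.38 in the combination. Of the 3 that passed the filter, 1 fell with rapamycin, Klrb1c (-3.33, edgeR adjusted p = 0.00154). Erythroid and platelet markers summed to 356 CPM in MEP1+CMC and 103 in MEP1+Rapamycin, and to 56.3 in MEP1+Metformin and 53.5 in the combination. B cell markers summed to 56.8 and 41.3 CPM in the first pair and to 34.9 and 104 in the second. The part of these cells in the Nr4a and Egr differences was not tested.

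**Figure D2:**
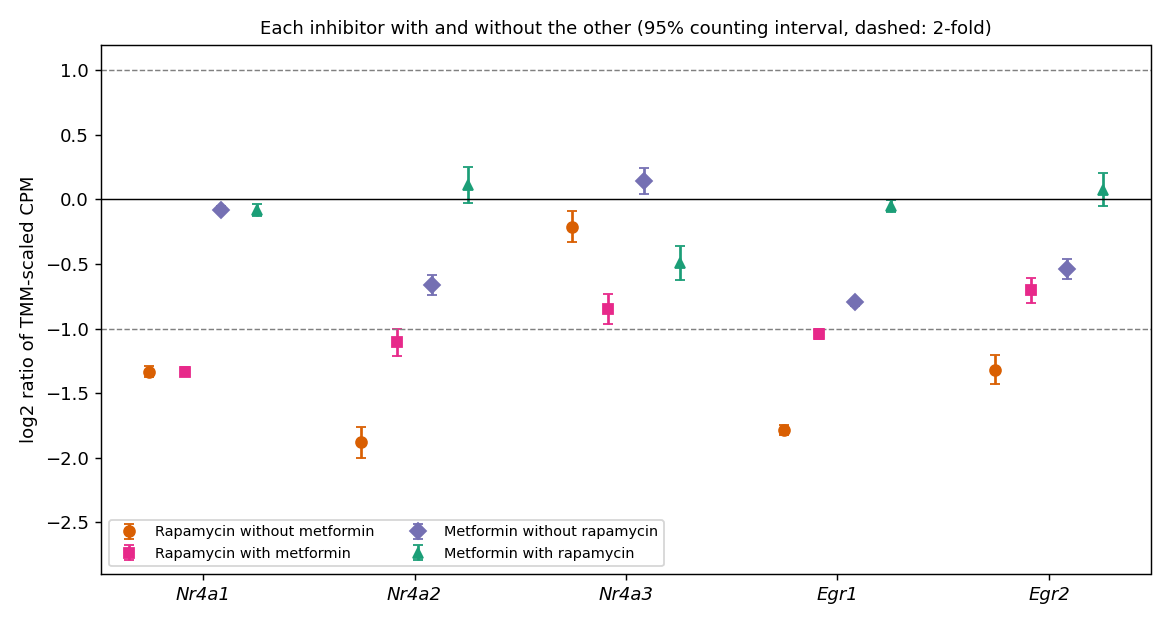
Log2 ratio of TMM-scaled CPM (vertical axis) for the 5 genes that passed the filter, with 1 marker for each of 4 pairs of libraries and bars for the 95% counting interval. The rapamycin ratios of Nr4a1 coincide at -1.33, those of Nr4a2, Egr1 and Egr2 are closer to 0 when metformin is in both libraries, and the dashed lines mark 2-fold.

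Metformin changed none of the 5 genes by the test. The metformin term was -0.41 for Egr1 (SE 0.20, edgeR adjusted p = 0.477), -0.26 for Nr4a2 (SE 0.20, edgeR adjusted p = 0.696), -0.22 for Egr2 (SE 0.19, edgeR adjusted p = 0.738), -0.15 for Nr4a3 (SE 0.21, edgeR adjusted p = 0.852) and -0.06 for Nr4a1 (SE 0.17, edgeR adjusted p = 0.934). None of the 5 genes had an unadjusted p under 0.05, and 0.131% of all genes were called. MEP1+Metformin over MEP1+CMC gave -0.80 for Egr1 (interval -0.82 to -0.77), -0.66 for Nr4a2, -0.54 for Egr2, -0.08 for Nr4a1 and 0.14 for Nr4a3. None reached 2-fold, beside 2.76% of all genes lower and 3.12% higher.

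Between the rapamycin libraries, without and with metformin, 4 of the 5 genes differed by 0.11 or less on the log2 scale. The combination over MEP1+Rapamycin gave -0.08 for Nr4a1, 0.11 for Nr4a2, -0.05 for Egr1, 0.07 for Egr2 and -0.49 for Nr4a3 (interval -0.63 to -0.36), none of them 2-fold (4.6% of all genes were lower, 2.38% higher). The combination over MEP1+CMC gave -1.41 for Nr4a1, -1.77 for Nr4a2, -1.84 for Egr1, -1.24 for Egr2 and -0.70 for Nr4a3, with 4 of 5 lower beside 3.64% of all genes. The departure from additivity is the metformin ratio with rapamycin minus that without it. It was -0.00 for Nr4a1 (counting SE 0.029), 0.78 for Nr4a2 (0.081), 0.74 for Egr1 (0.028), 0.61 for Egr2 (0.075) and -0.64 for Nr4a3 (0.084). With 4 libraries no degree of freedom is left to test it, and differences between mice are not in these errors.

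**Figure D3:**
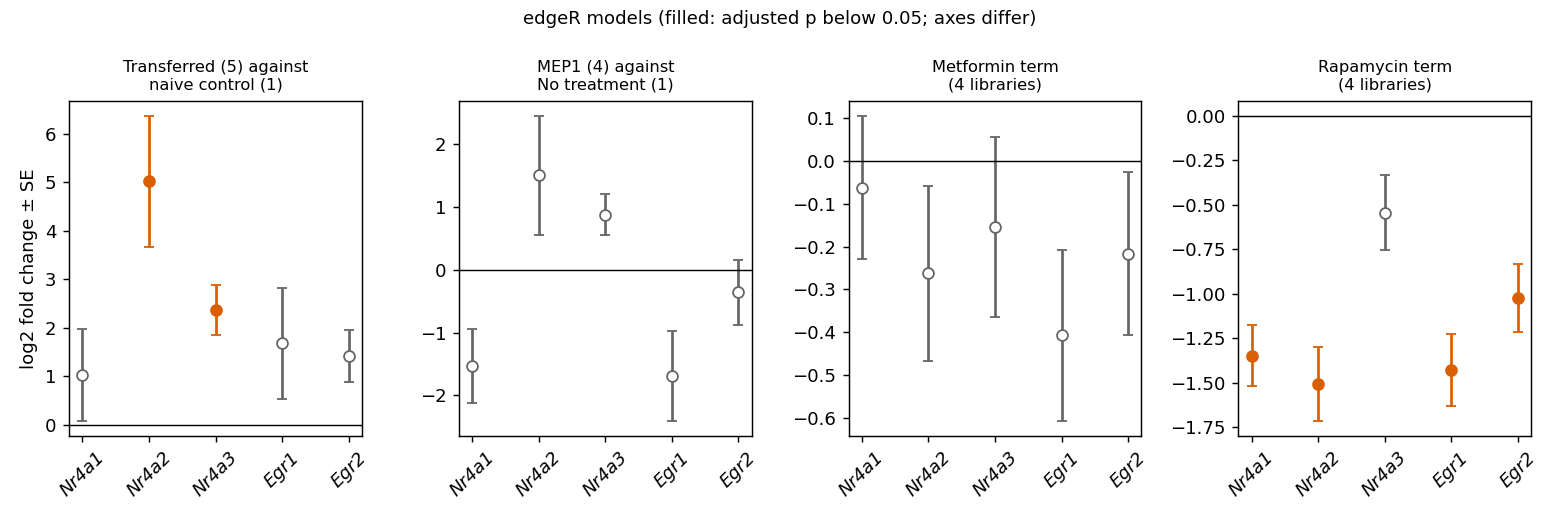
Log2 fold change (vertical axis, with a separate range in each panel) of the 5 genes in the 4 edgeR models, with bars for the standard error. Filled points have an adjusted p below 0.05: Nr4a2 and Nr4a3 in the transferred libraries, and Nr4a1, Nr4a2, Egr1 and Egr2 for rapamycin.

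The make-up of each family differed between libraries. Per kilobase of exon, Nr4a1 made up 98.3% of the summed Nr4a level in No treatment and 98.7% in the naive control, and 88.1% to 90.6% in the 4 libraries given MEP1 on days 28 and 35. Nr4a2 went from 0.332% in the naive control and 1.01% in No treatment to 9.24% in MEP1+CMC, and Nr4a3 reached 5.62% in MEP1+Rapamycin. The summed Nr4a level was 324 CPM per kilobase in No treatment, 184 in MEP1+CMC, 169 in MEP1+Metformin, 73.1 in MEP1+Rapamycin, 68.7 in the combination and 75.3 in the naive control. These sums depend on the scaling of the naive control, and the shares do not. Nr4a2 and Nr4a3 had larger shares in both rapamycin libraries than in the naive control.

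In the Egr family, Egr1 held 94.0% of the summed level per kilobase in No treatment, 87.4% in the naive control and 82.5% in the combination. Egr2 held 5.76% in No treatment, 11.6% in MEP1+CMC, 13.5% in MEP1+Metformin, 15.4% in MEP1+Rapamycin, 16.5% in the combination and 11.8% in the naive control. Egr3 stayed under 1% in every library, with 0.977% at most. The quotient of Nr4a1 over Egr1 in CPM was 0.678 in MEP1+CMC, 0.769 in No treatment, 0.910 in the combination, 0.928 in MEP1+Rapamycin, 1.11 in MEP1+Metformin and 1.29 in the naive control. This quotient is not corrected for length and serves only to compare libraries. Per kilobase, Nr4a1 was above Egr1 in every library, at 319 against 229 CPM per kilobase in No treatment and 60.8 against 36.9 in the combination.

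**Figure D4:**
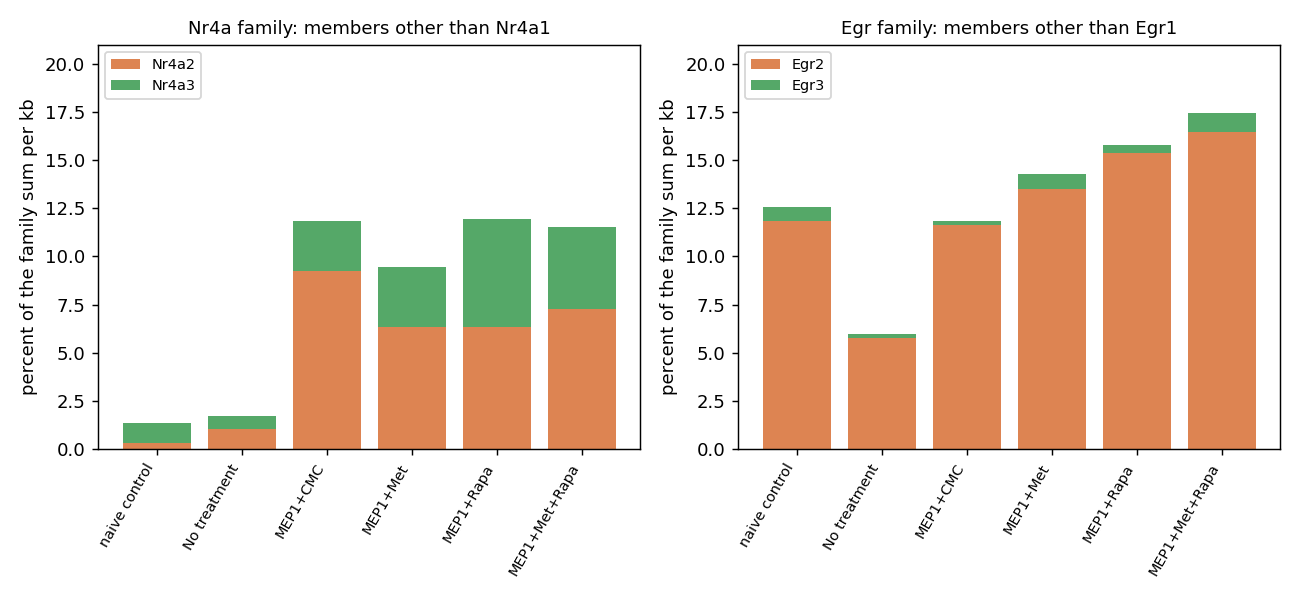
Share of the family sum per kilobase of exon (vertical axis, percent, from 0) held by Nr4a2 and Nr4a3 (left) and by Egr2 and Egr3 (right) in each library, with the rest held by Nr4a1 or Egr1. Nr4a2 and Nr4a3 together are small in the naive control and No treatment and larger in the 4 MEP1 libraries, and the Egr2 share is lowest in No treatment.

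Across the libraries Nr4a1 followed Egr1 more closely than the other Nr4a genes. Pearson r over the 6 libraries, of log2(CPM + 1), was 0.967 for Nr4a1 with Egr1 and 0.961 for Nr4a2 with Nr4a3. Within the Nr4a family, Nr4a1 had r = 0.319 with Nr4a2 and 0.202 with Nr4a3. Egr2 had r = 0.881 with Egr1, 0.813 with Nr4a2 and 0.793 with Nr4a1. Over the 5 transferred libraries the same r was 0.975 for Nr4a1 with Egr1, 0.820 for Nr4a2 with Nr4a3 and 0.076 for Nr4a1 with Nr4a2. These are descriptions over few libraries that share treatments and 1 naive control.

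With so few libraries many genes follow the same order. Of 9890 other genes with a mean of at least 5 CPM, 27 had r of 0.95 or more with Nr4a1 over the 6 libraries, 44 with Egr1, 53 with Egr2, 158 with Nr4a3 and 166 with Nr4a2. The most alike to Nr4a1 were Yrdc (r = 0.994), Oser1, Zfp36, Rbm3 and Hccs. To Nr4a2 they were Arhgap10 (0.996), Gpr155, Ifitm10, Mafg and Aim2, and to Nr4a3 Ccnt1 (0.996), Cpne7, Gm26549, Ddx5 and Rassf1. To Egr1 they were Galk2 (0.993), D16Ertd472e, Stx7, Zfp330 and Tgif1. To Egr2 they were Ubash3b (0.998), Rgs1 (0.996), Map2k3, Odc1 and Mpv17. Zfp36 is an immediate early gene whose protein destabilises mRNAs, and Ubash3b encodes a phosphatase that dampens T-cell receptor signalling. Without the naive control, 1 to 3 of the 5 most alike genes of each member were the same.

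Upstream regulators and partners of the 6 genes were a list of 21 genes, all of which passed the filter. In the rapamycin model 0 of 21 were called by edgeR, beside 0.449% of all genes. In MEP1+Rapamycin over MEP1+CMC, 4 were lower and 0 higher, with a median log2 ratio of -0.16. Over all genes the median was 0.03, with 4.49% lower and 7.4% higher, and these shares apply to the same pair in the lists that follow. Egr4, the remaining Egr family gene, had -2.46, the MEF2 family factor Mef2c -1.67 and Nab1, a corepressor that binds Egr proteins, -1.20. In the combination over MEP1+Metformin 2 of the 21 were lower and 0 higher, beside 1.9% and 1.22% of all genes. The median there was -0.01. Egr4 had 499 counts in No treatment, 300 in MEP1+CMC, 78 in MEP1+Metformin, 31 in MEP1+Rapamycin, 23 in the combination and 0 in the naive control, where 3 counts would be 0.160 CPM. Its order over the transferred libraries was that of Egr1.

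Of 25 T-cell receptor activation genes that passed the filter, 3 fell with rapamycin and 0 rose, beside 0.278% and 0.17% of all genes. The 3 were chosen for mention after their values were seen: Spry1 (-1.0, edgeR adjusted p = 0.00418) and Dusp6 (-0.98, edgeR adjusted p = 0.00562), feedback inhibitors of the ERK pathway that also feeds Egr1, and Gadd45b (-0.97, edgeR adjusted p = 0.0308). Chosen in the same way, Cd69 (-0.21, edgeR adjusted p = 0.843) and Cd5 (-0.04, edgeR adjusted p = 0.971) were not called. Il2ra (0.23, edgeR adjusted p = 0.894) and Myc (0.50, edgeR adjusted p = 0.564), also so chosen, had positive terms and were not called. Between MEP1+Rapamycin and MEP1+CMC, 7 of the 25 were lower and 0 higher, led by Rgs16 (-4.73), a regulator of G-protein signalling, and Bhlhe40 (-2.18) and Nfil3 (-1.47), both transcription factors. The median was -0.30. In the combination over MEP1+Metformin 2 of the 25 were lower and 0 higher, beside 1.9% and 1.22% of all genes, with a median of -0.30. In the transferred libraries 9 of the 25 rose and 1 fell against the naive control, beside 9.96% and 8.31% of all genes. In the MEP1 model and the metformin model 0 of the 25 were called, beside 1.34% and 0.131% of all genes.

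Of 26 other immediate early and stress genes, many of which also respond to tissue handling, 0 fell and 2 rose with rapamycin, beside 0.278% and 0.17% of all genes. The median rapamycin term of the 26 was -0.40 (0.0034 over all genes), and that of the 25 receptor activation genes was -0.43. Those that rose were the heat shock genes Hspa1a (1.24, edgeR adjusted p = 0.000336) and Hspa1b (0.91, edgeR adjusted p = 0.016). With metformin 2 of the 26 fell and 0 rose, beside 0.0774% and 0.0541% of all genes. They were the same genes, Hspa1b (-1.17, edgeR adjusted p = 0.00243) and Hspa1a (-0.91, edgeR adjusted p = 0.0109). Hspa1a was at 85.5 CPM in MEP1+CMC, 50.4 in MEP1+Metformin, 228 in MEP1+Rapamycin and 107 in the combination. Hspa1a and Hspa1b are near-identical copies between which reads can be split. Fos and Jun, singled out after their values were seen as the best known of the list, had rapamycin terms of -0.25 (SE 0.23, edgeR adjusted p = 0.847) and -0.07 (SE 0.22, edgeR adjusted p = 0.96). Fos was at 1397 CPM in MEP1+CMC, 1325 in MEP1+Metformin, 1600 in MEP1+Rapamycin and 835 in the combination. The difference between these terms and those of Nr4a1 and Egr1 was not tested. In MEP1+Rapamycin over MEP1+CMC, 3 of the 26 were lower, Ier3 (-3.46), Csrnp1 (-1.43) and Atf3 (-1.11), and 2 were higher, Hspa1a (1.42) and Fosb (1.21). The median was -0.23. In the combination over MEP1+CMC, the median was -0.64 and 7 of the 26 were lower and 0 higher, beside 3.64% of all genes lower and 3.22% higher. In the combination over MEP1+Metformin 3 of the 26 were lower and 1 higher, beside 1.9% and 1.22% of all genes, with a median of -0.52. The part of tissue handling in the Nr4a and Egr levels was not tested.

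Genes linked to anergy through Egr2 and Egr3 were a list of 18, of which 16 passed the filter. None was called for rapamycin by edgeR, while 6 were lower and 1 higher in MEP1+Rapamycin over MEP1+CMC, with a median of -0.34. The inhibitory receptor gene Lag3 had -2.58, the adhesion molecule gene Crtam -1.71 and Fasl, which encodes a death ligand, -1.56, and the transcription factor gene Bach2 had 1.06. In the combination over MEP1+Metformin 1 of the 16 was lower and 0 higher, beside 1.9% and 1.22% of all genes, with a median of -0.05. In MEP1+CMC over No treatment 5 of the 16 were higher and 0 lower, beside 8.69% and 3.51% of all genes, with Lag3 at 2.40, Crtam at 2.00 and Tnfrsf9, a costimulatory receptor gene, at 1.77.

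Genes linked to exhaustion and regulatory T cells through the Nr4a factors were a list of 13, all of which passed the filter, and Lag3 is on both lists. None was called for rapamycin by edgeR, beside 0.449% of all genes. In MEP1+Rapamycin over MEP1+CMC, the median was -1.0, 6 genes were lower and 1 was higher. The inhibitory receptor genes Havcr2 (-4.20), Tigit (-2.82) and Lag3 (-2.58) were lower, and Foxp3, the defining factor of regulatory T cells, was higher (1.31). In the combination over MEP1+Metformin 0 of the 13 were lower and 0 higher, beside 1.9% and 1.22% of all genes, with a median of -0.16. In MEP1+CMC over No treatment the median of the 13 was 1.04 (0.0059 over all genes). There 7 were higher and 0 lower, beside 8.69% and 3.51% of all genes. Among them were Foxp3 (2.75), Lag3 (2.40) and Ikzf2 (1.67), and Ikzf2 was the gene of these lists called in the MEP1 model (1.39, edgeR adjusted p = 0.0397). Against the naive control, 9 of the 13 rose over the transferred libraries and 0 fell, beside 9.96% and 8.31% of all genes.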

How the data were processed

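The authors deposited raw counts per gene over exons for each of 6 libraries of bulk RNA sequencing, with 49315 Ensembl identifiers and their exon coordinates. The submitters' processing notes name GRCm38 as the build and, as tools, featureCounts (Subread 1.5.2), STAR 2.5.2b and Trimmomatic 0.36. The strand setting, annotation release and handling of reads with several alignments are not given in the sources used here. Symbols came from GENCODE M21, which lacked 345 identifiers. Groups were taken from the treatment labels.

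Genes with at least 2 CPM and 10 counts in the same library, in at least 1 library, were kept (12928), and scaled by TMM after that filter. Pairs of libraries were compared by the ratio of scaled CPM with a 95% interval (exact, Clopper-Pearson) from their 2 counts, and counted as different at 2-fold or more with the interval excluding no change. A count of 0 was set to a floor of 3 counts in ratios. Counts are reads and not molecules, so intervals and floors cover counting error only. The quasi-likelihood test of edgeR 4.0.16 (R 4.3.3) was run over all genes kept, with Benjamini-Hochberg adjustment and a threshold of 0.05. There were 4 models: transferred against naive (4 residual degrees of freedom), MEP1 against No treatment (3), and an additive fit of both inhibitors with a term for each (1). Libraries of different treatments stand in for replicates in the first 2 models, so p-values measure the spread between these samples. In the inhibitor fit the residual degree of freedom is the departure from additivity, so its p-values do not measure variation between mice. The scripts were tested on simulated counts. The alternatives were other scalings, other filters, DESeq2 1.42.0 and leaving out each library where degrees of freedom allowed. The 6 genes, the other gene lists and the rules were chosen with earlier results of these data known. The genes named are the 6 members, for each the 5 genes most alike by Pearson r, and from each list at most 3 genes with the largest ratio past the size rule in each direction in 3 pairs, among those with at least 50 counts in 1 of the 2 libraries of the pair, besides those said in the text to be chosen after their values were seen. The markers of 9 cell types were summed in each library. B cell, plasma cell, neutrophil, CD8 T cell, natural killer and stromal markers were at most 353 CPM in sum in any library.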

Additional observations from a re-analysis of the deposited data

Results flagged for a closer look

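Nr4a3 moved in opposite directions with metformin depending on rapamycin. Its log2 ratio was 0.14 in MEP1+Metformin over MEP1+CMC and -0.49 in the combination over MEP1+Rapamycin. With 1 library in each condition the difference was not tested, and the first value is small. It stayed above 0 under each scaling and filter that kept the gene.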

How the results depend on the processing

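No paired analysis was possible because each condition has 1 library. With both inhibitors in the model, the calls of Nr4a1, Egr1 and Egr2 for rapamycin held under every other scaling, filter and test run. The Nr4a2 call held under each of these that kept the gene. With metformin left out of the model, Egr2 did not pass (edgeR adjusted p = 0.112). The stricter filter, at least 5 CPM in every library, drops Nr4a2 and Nr4a3. Nr4a1 changed sign for metformin with library totals (0.034). In No treatment over the naive control, 3 members were higher with the stricter filter. In MEP1+CMC over No treatment, 1 was higher and 1 lower without a filter, and 0 were higher with the stricter one. Against the naive control 1 member rose with DESeq2 size factors, 0 with the stricter filter, and 1 to 2 when 1 library was left out. The count of all genes called there was 4246 with library totals, when 3999 rose and 247 fell, 1299 with the stricter filter, 3771 with the DESeq2 Wald test and 1387 to 3961 when 1 library was left out. For MEP1 it was 1123 without a filter, 8 with the stricter filter, 1163 with the DESeq2 Wald test and 96 to 313 when 1 library was left out. For metformin it was 27 with library totals, 64 without a filter, 196 with the stricter filter and 30 with the DESeq2 Wald test. For rapamycin it was 160 without a filter and 148 with the stricter filter. With metformin left out of that model, chosen after seeing the data, it was 12, then 244 without MEP1+Metformin, 19 without MEP1+Rapamycin and 322 without the combination. There 2 members fell without MEP1+CMC and 1 without MEP1+Rapamycin. Counting depth limits Egr3, with 7 to 49 counts a library, and Nr4a2 in the naive control, with 19.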
